A study of Homo sapiens with 4 samples.

Results

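Receptor tyrosine kinases were followed in PANC-1, a long-established line of human pancreatic cancer cells, after knockdown of SIRT1. The receptors were taken by gene symbol from a list of 10 names, EGFR, ERBB2, ERBB3, MET, AXL, EPHA2, EPHB4, FGFR1, DDR1 and MST1R. All 10 were found among the 16878 genes of each table. They are 10 of the 55 receptor tyrosine kinases in the tables, out of 58 human receptor tyrosine kinases listed. RNA-seq compared 2 Control libraries with 2 siSIRT1 libraries, each made from total RNA 48 h after transfection of PANC-1 cells with an siRNA against SIRT1, an NAD-dependent deacetylase, or with controls. The labels do not say more about what the controls received. The study lists a single siRNA for SIRT1, so effects of the oligo and of SIRT1 cannot be told apart here. The labels do not say that libraries of a group came from separate cultures, so p-values measure the spread between these libraries, which may be technical.

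Receptor tyrosine kinases are membrane proteins with an extracellular ligand-binding part, a single membrane-spanning helix and an intracellular kinase. Ligand binding brings receptors together, the kinases phosphorylate tyrosines on each other, and adaptor proteins docked there start the RAS-ERK, PI3K-AKT, PLC-gamma and STAT pathways. The signal is ended by inhibitory proteins, phosphatases, ubiquitin ligases and sorting of the receptor through endosomes to the lysosome. In pancreatic ductal cancer, EGFR, MET, AXL and EPHA2 have been studied as drivers of growth, invasion or drug resistance.

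Values were FPKM, fragments scaled to transcript length and to the mapped fragments of the library, so levels of genes can be set beside each other per length. Estimated depth ran from 8710000 to 9100000 reads per library. SIRT1 itself (Entrez gene 23411) stood at 10.5 and 10.3 FPKM in Control against 1.8 and 2.05 FPKM in siSIRT1, a log2 fold change of -1.96. Changes below are siSIRT1 minus Control on the log2(FPKM + 1) scale, tested with limma over the 12191 genes that averaged 1 FPKM or more, and a gene was called at an adjusted p under 0.05. With 2 libraries against 2, an exact permutation test of a single gene cannot go below a p of 0.333, so the calls rest on the fit across genes. The epithelial keratin transcripts KRT8 and KRT18 and the mesenchymal filament VIM were abundant in every library. KRT8 stood at 2272 and 2164 FPKM in Control against 2745 and 2529 FPKM in siSIRT1, and was not called. Of 9 markers of other cell types 7 were in the tables, and without CD68, which the cell line carried at 39.1 to 63.0 FPKM, they summed to 1.78 to 2.10 FPKM in every library. The fibroblast markers DCN and LUM and the acinar marker PRSS1 were at 0 to 0.15 FPKM. These are bulk libraries, so fewer cells of a type and less RNA per cell cannot be told apart.

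The labels do not say which oligo was used for these libraries. The sequence shown is the one the study lists for siSIRT1, and the matches below hold for that oligo. The listed strand matched the SIRT1 transcript at 1 place over all 19 bases and the 10 receptor transcripts at none. The complementary strand is printed with its seed, bases 2 to 8, in capitals.
siSIRT1, listed strand: GUGUCAUGGUUCCUUUGCA
siSIRT1, complementary strand: uGCAAAGGaaccaugacac
The DNA letters that pair with this seed, CCTTTGC, occurred in the 3′ UTR of 1865 of 11932 tested genes with an annotated 3′ UTR (15.6%). Among the receptors they occurred once in EPHA2 and once in EPHB4, and in none of the other 8. The sites are printed from GRCh37 with the matching letters in capitals, EPHA2 at chr1:16451158-16451182 and EPHB4 at chr7:100400433-100400457, both on the minus strand, at base 537 of an 878-base and base 635 of an 896-base 3′ UTR.
EPHA2: tttcctgggCCTTTGCaagatgctt
EPHB4: ctatggcctCCTTTGCccaagttga
Genes with the letters had a median log2 fold change of 0.0576 and genes without them 0.0784. Lower calls made up 13.5% of the first and 13% of the second. The genes with the letters had longer 3′ UTRs, with a median of 2974 against 1089 bases. EPHA2 and EPHB4 are both among the receptors described below as lower in siSIRT1, and the part of these matches in that was not tested.

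Ranked by level, EPHA2 was the most abundant of the 10 receptors in Control and ERBB3 the least. The mean Control levels were 196.4 FPKM for EPHA2, 123.6 for AXL, 78.7 for DDR1, 58.1 for EGFR, 52.6 for EPHB4, 24.8 for FGFR1, 21.3 for ERBB2, 19.9 for MET, 19.7 for MST1R and 6.08 for ERBB3. EPHA2 was thus above 98.4% of all genes in the tables, EGFR above 93.0%, MET above 78.6% and ERBB3 above 52.7%. Each receptor's lower Control value lay above the higher Control value of the next one. The closest neighbours were MET and MST1R, with a ratio of 1.01, and ERBB2 and MET, with a ratio of 1.07. These gaps rest on 2 libraries.

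The order was not the same in siSIRT1, where AXL stood first, EPHA2 second and ERBB2 above FGFR1. AXL, at 98.7 and 106.9 FPKM, lay above EPHA2, at 95.7 and 95.6 FPKM. The ratio of EPHA2 to AXL was 1.61 and 1.56 in Control against 0.97 and 0.895 in siSIRT1. EGFR overlapped EPHB4 in the siSIRT1 libraries, and FGFR1 overlapped MET. The plot of receptor levels shows the 4 libraries side by side.

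**Figure D1:**
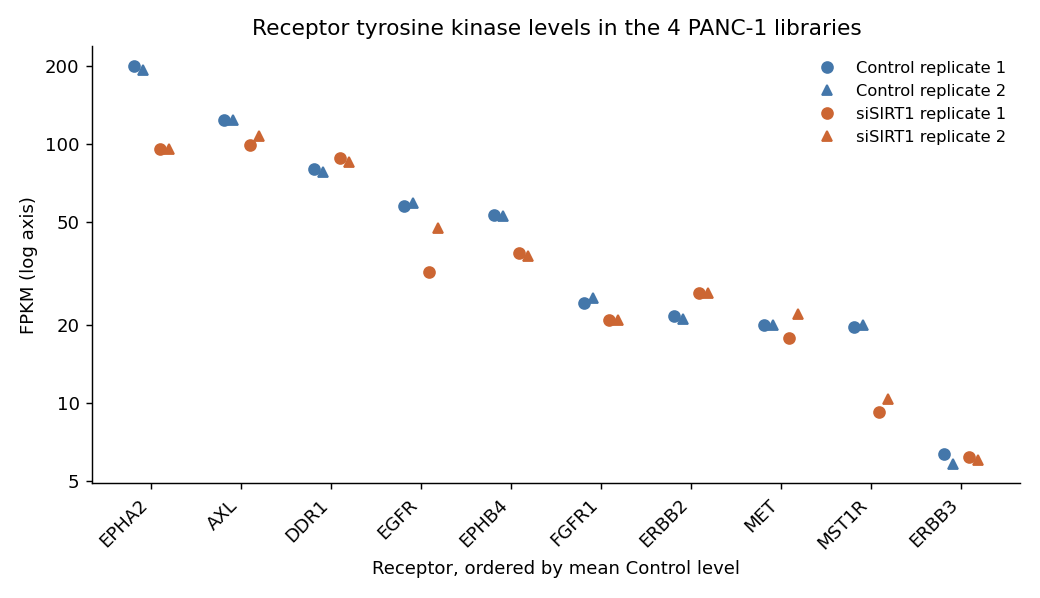
FPKM (log axis) of the 10 receptors in each library, ordered by mean Control level. Blue marks are Control, orange marks siSIRT1, circles replicate 1 and triangles replicate 2. EPHA2 and MST1R have the widest gap between groups, and the siSIRT1 libraries lie far apart in EGFR (31.8 and 47.2 FPKM).

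Across the 10 receptors, 6 fell, 1 rose and 3 did not pass the test. The 6 that fell were EPHA2, MST1R, EGFR, EPHB4, AXL and FGFR1, ERBB2 was the one that rose, and DDR1, MET and ERBB3 were not called. Of all genes tested, 37.1% were called, 13.1% lower and 24% higher. The receptors and the lists below were chosen with earlier results of these data known, so such counts only describe. The groups did not overlap in 8 of the 10 receptors, against 69% of all genes, and 6 of these were lower, against 25.2% of all genes. The median log2 fold change of the 10 was -0.25, and that of all genes tested 0.07. At the thresholds of the study, a fold above 1.2 and p under 0.001 (unadjusted here), 3 receptors passed, EPHA2, EPHB4 and MST1R, where 18.1% of all genes passed. All 3 were lower, against 6.89% of all genes. Without siSIRT1 replicate 2 that number was 5. Without Control replicate 1 or without Control replicate 2, 4 of the 10 were called, the 3 just named and EGFR. Scaling the libraries in other ways left 1 receptor higher and 6 lower, while the share of higher calls among all called genes moved from 64.8% to between 50.1% and 55.5%.

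**Figure D2:**
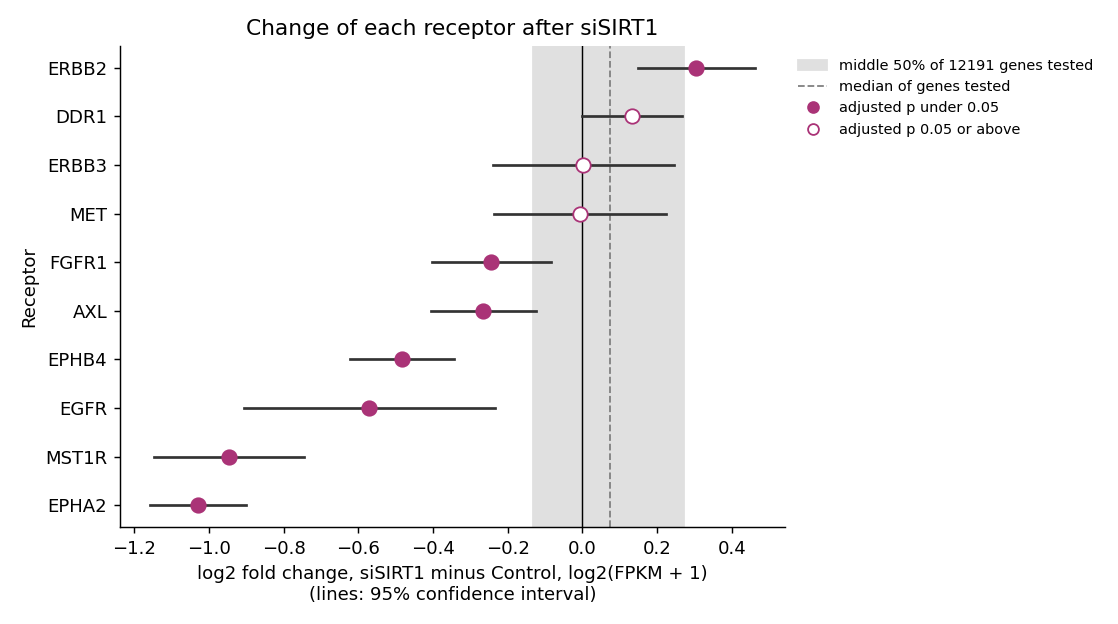
Log2 fold change of each receptor (siSIRT1 minus Control, log2(FPKM + 1)) with its 95% confidence interval, filled where the adjusted p was under 0.05. The grey band holds the middle 50% of the 12191 genes tested (-0.13 to 0.27) around their median of 0.07, and the points of the 6 receptors that fell lie to its left.

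The Eph receptors bind ephrins on neighbouring cells and signal on contact. EPHA2, the main ephrin-A receptor of many epithelial cancers, was at 199.7 and 193 FPKM in Control against 95.7 and 95.6 FPKM in siSIRT1. The siSIRT1 libraries were nearly equal and far below both Control libraries. Means were 196.4 ± 4.62 and 95.7 ± 0.078 FPKM (SD, n = 2 each), which left 48.7% of the Control level. The log2 fold change was -1.03 ± 0.06 (SE, adjusted p = 9.08e-06, limma). The estimated numbers of reads were 6863 and 6795 in Control against 3224 and 3309 in siSIRT1. EPHA2 (Entrez gene 1969) lies at chr1:16450832-16482564 of GRCh37, on the minus strand, with 17 exons.

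EPHB4, the receptor of ephrin-B2 best known from the growth of veins, was at 52.9 and 52.4 FPKM in Control against 37.9 and 36.8 FPKM in siSIRT1. The groups did not overlap, and the libraries of a group were close together. Its log2 fold change was -0.48 ± 0.06 (SE, adjusted p = 0.000536, limma), and 71.0% of the Control level was left. EPHB4 (Entrez gene 2050) lies at chr7:100400187-100425145 of GRCh37, minus strand, and shares 69 exonic bases with SLC12A9 on the other strand. Whether the counting used strand is not given in the sources used here, so reads from those bases cannot be assigned.

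MST1R, the receptor of macrophage-stimulating protein and a relative of MET, was at 19.5 and 19.9 FPKM in Control against 9.19 and 10.3 FPKM in siSIRT1. Both siSIRT1 libraries were far below Control, as for EPHA2 but at a much lower level. Its log2 fold change was -0.95 ± 0.09 (SE, adjusted p = 0.000123, limma), and 49.5% of the Control level was left. The reads behind it were about 814 and 848 in Control and 376 and 433 in siSIRT1. MST1R (Entrez gene 4486) lies at chr3:49924435-49941306 of GRCh37, minus strand, and shares 327 exonic bases with an antisense lncRNA and 29 with another.

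EPHA2, EPHB4 and MST1R held their direction and their call without any 1 of the 4 libraries and under all 12 other settings tried. Each also has a single promoter window in the RefSeq table (GRCh38.p14), so their 250 bases before the start are shown. The windows were chr1:16156070-16156319 for EPHA2, chr7:100827524-100827773 for EPHB4 and chr3:49903874-49904123 for MST1R, all on the minus strand. Capitals mark matches to the letters of a GC box (GGGCGG), a CRE (TGACGTCA), an ETS site (CCGGAA), an AP-1 site (TGANTCA) or an E-box (CACGTG), on either strand.
EPHA2: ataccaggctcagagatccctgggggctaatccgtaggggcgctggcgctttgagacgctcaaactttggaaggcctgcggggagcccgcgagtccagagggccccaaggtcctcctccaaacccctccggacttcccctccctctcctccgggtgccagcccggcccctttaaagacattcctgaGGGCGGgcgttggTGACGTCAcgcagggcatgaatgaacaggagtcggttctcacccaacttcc
EPHB4: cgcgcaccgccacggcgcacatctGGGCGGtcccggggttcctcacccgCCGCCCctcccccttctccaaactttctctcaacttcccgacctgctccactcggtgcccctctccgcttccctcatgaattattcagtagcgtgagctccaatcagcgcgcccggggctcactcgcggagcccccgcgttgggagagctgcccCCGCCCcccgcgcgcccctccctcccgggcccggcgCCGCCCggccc
MST1R: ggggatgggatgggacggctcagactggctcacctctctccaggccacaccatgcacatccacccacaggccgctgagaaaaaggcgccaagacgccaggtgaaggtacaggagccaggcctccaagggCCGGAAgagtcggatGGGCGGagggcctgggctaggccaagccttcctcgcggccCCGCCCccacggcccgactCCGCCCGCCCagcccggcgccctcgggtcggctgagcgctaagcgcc
EPHA2 held 1 GC box and 1 CRE, EPHB4 4 GC boxes, and MST1R 4 GC boxes, of which a pair overlaps, and 1 ETS match. Of 35116 windows of that length, 42.6% held a GC box, 1.65% a CRE, 14.5% an ETS match, 6.57% an AP-1 match and 6.34% an E-box. The CRE letters of the EPHA2 window were therefore held by few windows. These shares are for at least 1 match, and the share of windows with 4 GC boxes was not counted. A match is a run of letters and not a measured site. Windows were found for 8 of the 10 receptors.

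The ERBB receptors did not move together. EGFR binds EGF-like ligands, ERBB2 has no known ligand and pairs with the others, and ERBB3 binds neuregulins and has a weak kinase. EGFR was at 57.2 and 59.0 FPKM in Control against 31.8 and 47.2 FPKM in siSIRT1. Both siSIRT1 values lay below both Control values, but they were 0.55 apart on the log2 scale, against 0.04 in Control. Means came to 58.1 ± 1.23 and 39.5 ± 10.8 FPKM (SD, n = 2 each). The log2 fold change was -0.57 ± 0.15 (SE, adjusted p = 0.0157, limma), and 68.0% of the Control level was left. It was -0.29 without siSIRT1 replicate 1 and -0.85 without siSIRT1 replicate 2. A fit with 1 siSIRT1 library takes its residual spread from the Control libraries alone, so the gap of 0.55 is not in its error. With all libraries, the adjusted p of EGFR was 0.114 with no filter on low values and 0.0558 without the trend in the variance (limma). EGFR (Entrez gene 1956, chr7:55086710-55279321 of GRCh37, plus strand) has the longest transcript of the 10, 9905 bases, and shares 186 exonic bases with EGFR-AS1.

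The siSIRT1 libraries also differed from each other by transcript length. In genes over 6000 bases, which include EGFR and MET, the median log2 ratio of siSIRT1 replicate 2 to replicate 1 was 0.15, and in genes up to 1000 bases it was -0.12. In Control the same medians were 0.04 and -0.04. EGFR and MET had the widest spread between the siSIRT1 libraries of the 10 receptors, 0.55 and 0.29. With each library's trend on length or on GC content removed, or under another scaling, pseudocount or filter, the log2 fold change of EGFR stayed between -0.66 and -0.55. The part of the length difference in the EGFR spread was not tested further.

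ERBB2 was at 21.5 and 21.0 FPKM in Control against 26.6 and 26.4 FPKM in siSIRT1. It was higher in both siSIRT1 libraries, by a log2 fold change of 0.31 ± 0.07 (SE, adjusted p = 0.00853, limma). Under the other scalings the log2 fold change was smaller, 0.223 to 0.246 (adjusted p from 0.027 to 0.0418, limma). With the trend on length or GC content removed it was 0.265 and 0.227. Without Control replicate 1 the adjusted p was 0.0581 and without Control replicate 2 it was 0.0879, and the log2 fold change was 0.32 and 0.29. ERBB2 (Entrez gene 2064, chr17:37844167-37886679 of GRCh37, plus strand) shares 163 exonic bases with MIEN1 on the other strand. The ratio of EGFR to ERBB2 was 2.66 and 2.80 in Control against 1.2 and 1.78 in siSIRT1.

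ERBB3 was at 6.34 and 5.82 FPKM in Control against 6.18 and 6.0 FPKM in siSIRT1. The siSIRT1 values lay within the Control values. Its log2 fold change was 0.00 with a 95% interval of -0.24 to 0.25 (adjusted p = 0.986, limma), from about 293 to 312 reads per library. ERBB3 (Entrez gene 2065) lies at chr12:56470583-56497289 of GRCh37, plus strand.

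MET, the receptor of hepatocyte growth factor, was at 19.9 and 19.9 FPKM in Control against 17.8 and 22.04 FPKM in siSIRT1. The siSIRT1 libraries lay on either side of Control. The log2 fold change was -0.01 with a 95% interval of -0.24 to 0.23 (adjusted p = 0.972, limma), and was 0.14 without siSIRT1 replicate 1 and -0.15 without siSIRT1 replicate 2. So MET and MST1R, with nearly the same Control level, stood apart in siSIRT1, at 19.9 ± 3.01 and 9.75 ± 0.79 FPKM (SD, n = 2 each). The difference between their changes was not tested. MET (Entrez gene 4233) lies at chr7:116312250-116438431 of GRCh37, plus strand.

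AXL, a receptor of the TAM family that binds GAS6, was at 123.7 and 123.6 FPKM in Control against 98.7 and 106.9 FPKM in siSIRT1. Both siSIRT1 values lay below Control. The log2 fold change was -0.27 ± 0.06 (SE, adjusted p = 0.00997, limma). FGFR1, a receptor of fibroblast growth factors, was at 24.3 and 25.3 FPKM in Control against 20.8 and 20.8 FPKM in siSIRT1. Its groups were also apart, with a log2 fold change of -0.24 ± 0.07 (SE, adjusted p = 0.0255, limma). Without Control replicate 1 or Control replicate 2 the adjusted p was 0.0966 and 0.0994 for AXL and 0.114 and 0.217 for FGFR1. AXL (Entrez gene 558) lies at chr19:41725128-41767671 of GRCh37, plus strand, and FGFR1 (Entrez gene 2260) on chromosome 8.

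DDR1, a receptor of collagens, was at 79.9 and 77.5 FPKM in Control against 88.0 and 84.8 FPKM in siSIRT1. The groups did not overlap, but the log2 fold change of 0.13 (95% interval 0.00 to 0.27) did not pass after adjustment (adjusted p = 0.106, limma). Under the 4 other scalings the estimate was 0.05 to 0.07, and with the trend on length or GC content removed it was 0.07 and 0.06. DDR1 (Entrez gene 780) lies at chr6:30844198-30867933 of GRCh37, plus strand.

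Summed, the 10 receptors held 605 and 598 FPKM in Control against 433 and 457 FPKM in siSIRT1. All 55 receptor tyrosine kinases summed to 862 and 860 FPKM in Control and to 671 and 707 FPKM in siSIRT1. The share of the 10 in that sum was 70.2% and 69.5% in Control and 64.6% in each siSIRT1 library. EPHA2 alone held 23.2% and 22.5% in Control and 14.3% and 13.5% in siSIRT1. Without EPHA2, the other 9 summed to 405 and 404 FPKM in Control and to 337 and 361 FPKM in siSIRT1. These are sums of levels, with no test.

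**Figure D3:**
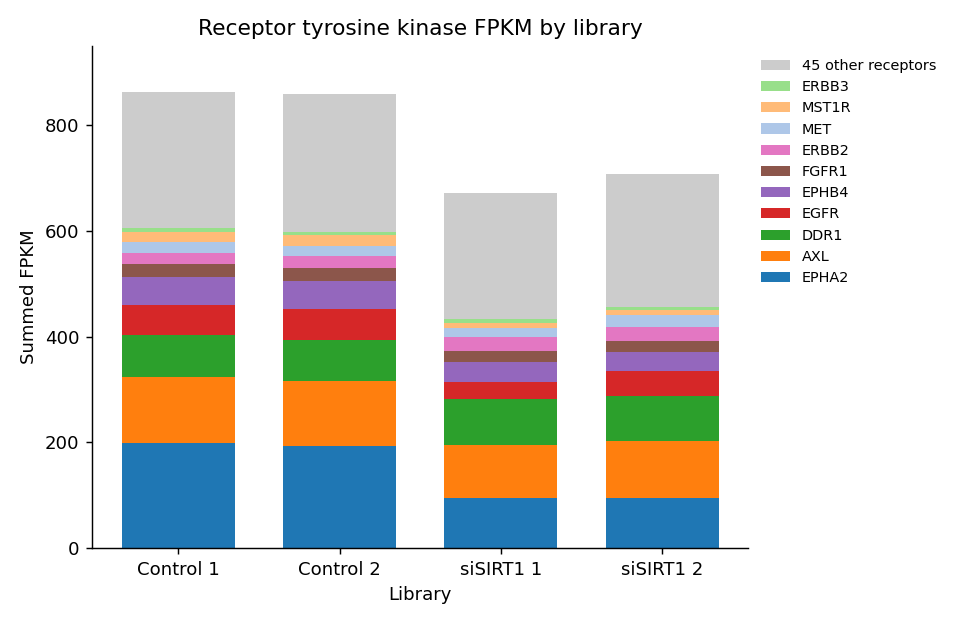
Stacked FPKM of the 10 receptors and of the 45 other receptor tyrosine kinases (grey) in each library. The Control bars reach 862 and 860 FPKM and the siSIRT1 bars 671 and 707 FPKM, and the lowest segment, EPHA2, shrinks most.

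Of the 48 other receptor tyrosine kinases listed, 45 were in the tables and 19 were tested. Of the 19, 5 were higher and 5 lower, at a median log2 fold change of -0.12. The share called was 52.6%, against 37.1% of all genes. PTK7, a pseudokinase of the WNT pathways, was the most abundant of these other receptors. It was at 84.8 and 90.1 FPKM in Control against 68.0 and 69.8 FPKM in siSIRT1. ROR1, a receptor of WNT5A, fell from 13.1 and 12.8 to 3.17 and 5.21 FPKM, a log2 fold change of -1.46 (adjusted p = 0.000376, limma). RET, the receptor of the GDNF family, fell by 1.07 on the log2 scale (adjusted p = 0.000481, limma). These 2 had far lower Control levels than EPHA2 or AXL. In the other direction EPHB6, an Eph receptor without kinase activity, rose from 11.9 and 11.6 to 24.8 and 23.8 FPKM, a log2 fold change of 0.98 (adjusted p = 5.48e-05, limma). FGFR2 rose by 0.81 and IGF1R by 0.57 on the log2 scale, with adjusted p of 0.000513 and 0.00311 (limma). MERTK, like AXL a TAM receptor, was lower with a log2 fold change of -0.52, and TYRO3, the third of that family, was higher with 0.24 (adjusted p = 0.0475, limma). The count of 10 called was 6 without Control replicate 2. The call of PTK7 was lost without Control replicate 2, and those of TYRO3 and ROR2 in each of the 4 fits without a library. Under other scalings TYRO3 was called in none of 4, and ROR2 only with quantile normalization. RYK, a WNT co-receptor, was next in abundance to PTK7 and was not called, at 32.0 and 33.6 FPKM in Control against 30.3 and 30.2 FPKM in siSIRT1. EPHA7 was lower too, at 1.68 and 2.01 FPKM in Control against 0.25 and 0.86 FPKM in siSIRT1. It passed the filter of 1 FPKM only through Control. It rested on about 14 and 50 reads in siSIRT1, and was not called with no filter (adjusted p = 0.0553, limma). So among the called Eph receptors EPHA2, EPHB4 and EPHA7 were lower and EPHB6 higher. The sum of EPHA2 and EPHB4 was 253 and 246 FPKM in Control against 134 and 132 FPKM in siSIRT1.

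Ligands of the ERBB receptors were 11, of which 6 were tested, 4 fell and 1 rose, with a median log2 fold change of -0.89. Of the 6, 83.3% were called, against 37.1% of all genes. AREG, an EGFR ligand, was at 8.24 and 7.96 FPKM in Control against 2.29 and 2.22 FPKM in siSIRT1, a log2 fold change of -1.48 (adjusted p = 4.47e-05, limma). EREG, which binds EGFR and ERBB4, was at 12.9 and 13.1 FPKM in Control against 5.45 and 5.53 FPKM in siSIRT1, a log2 fold change of -1.11 (adjusted p = 7.67e-05, limma). NRG1, a ligand of ERBB3, was at 16.4 and 18.1 FPKM in Control against 6.44 and 7.55 FPKM in siSIRT1, a log2 fold change of -1.19 (adjusted p = 9.13e-05, limma). NRG1 was thus lower while ERBB3 stayed within the spread of Control. HBEGF was lower by 0.67 and EPGN higher by 0.61 on the log2 scale, both below 3 FPKM in every library, and NRG2 was not called. EPGN, at 0.57 and 0.62 FPKM in Control against 1.93 and 1.03 FPKM in siSIRT1, passed the filter only through siSIRT1. HBEGF, with a siSIRT1 mean of 0.955 FPKM, passed it through Control. Both count in the 83.3%. With no filter neither was called (adjusted p = 0.0773 for HBEGF and 0.101 for EPGN, limma). The count of 5 called was 3 without Control replicate 1, where HBEGF and EPGN were lost. HBEGF was also lost without siSIRT1 replicate 2, and EPGN without Control replicate 2 or with quantile normalization. EGF and TGFA stayed below the limit for testing, with EGF at 0.11 to 0.41 FPKM. TGFA was at 0.54 and 0.51 FPKM in Control against 1.14 and 0.84 FPKM in siSIRT1. With no filter its log2 fold change was 0.38 and it was not called (adjusted p = 0.0645, limma).

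For the ligands of MET, MST1R, AXL and FGFR1, 5 of 11 were tested, with 2 higher and 1 lower and a median log2 fold change of -0.08. Of the 5, 60% were called, against 37.1% of all genes. GAS6, the ligand of AXL, was at 16.4 and 15.2 FPKM in Control against 10.4 and 10.3 FPKM in siSIRT1, a log2 fold change of -0.56 (adjusted p = 0.00131, limma). Both AXL and its ligand were therefore lower. PROS1, a ligand of MERTK and TYRO3, rose from 17.9 and 17.4 to 23.4 and 24.9 FPKM (adjusted p = 0.00237, limma). HGF, the ligand of MET, was under the limit for testing at 0.26 to 1.00 FPKM, and MST1, the ligand of MST1R, was not called at 3.70 to 4.13 FPKM. FGF5 was higher by 0.58 on the log2 scale, a call lost without Control replicate 2.

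All 8 ephrins were tested, with 2 higher, EFNA1 and EFNB2, and 2 lower, EFNA5 and EFNB3, at a median log2 fold change of 0.12. Thus 50% were called, against 37.1% of all genes. The count of 4 called was 1 without Control replicate 1, 0 without Control replicate 2, and 2 under each of 3 other scalings (equal sums, upper quartile, median of ratios). EFNA1 and EFNB2 both lost their higher calls under these 3 scalings. EFNB2, the ligand of EPHB4, was at 3.56 and 3.47 FPKM in Control against 4.38 and 5.63 FPKM in siSIRT1 (adjusted p = 0.044, limma), a call that was also lost without siSIRT1 replicate 2. EFNA1 was lost without siSIRT1 replicate 1, and with quantile normalization too. Of 4 collagen ligands of DDR1, 3 were tested and all 3 were higher, against 24% of all genes. COL1A2 was under the limit for testing, at 0 to 0.06 FPKM. COL1A1 rose from 18.8 and 18.2 FPKM to 131.3 and 126.3 FPKM, a log2 fold change of 2.74 (adjusted p = 1.08e-07, limma), while DDR1 itself was not called.

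Inhibitors of receptor signalling were lower where they were called. Of 20 attenuators, 19 were tested, 0 rose and 10 fell, with a median log2 fold change of -0.38. Among all genes tested, 24% were called higher and 13.1% lower. ERRFI1 (MIG6), which binds and inhibits EGFR, was at 198.4 and 206.8 FPKM in Control against 87.7 and 96.1 FPKM in siSIRT1, a log2 fold change of -1.13 (adjusted p = 1.27e-05, limma). The Sprouty proteins SPRY1, SPRY2 and SPRY4, which restrain RAS-ERK signalling, fell by 1.12, 0.98 and 1.12 on the log2 scale. DUSP6, the phosphatase of ERK, was at 3.52 and 3.75 FPKM in Control against 1.39 and 1.35 FPKM in siSIRT1. The calls of these 5 held without any 1 of the 4 libraries. Several attenuators are themselves induced by ERK, and 5 of them stand also in the next list.

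The ERK output genes, transcripts known to follow ERK activity, were 13 of 13 tested, with 9 lower and 2 higher. Their median log2 fold change was -0.72, and 84.6% were called, against 37.1% of all genes. Left without the 5 shared attenuators, 8 were tested, with 5 lower and 2 higher and a median of -0.69. Like the receptors and the other lists, the attenuators and the ERK output genes were listed with earlier results of these data known, so these counts only describe. ETV5, an ETS factor, was at 24.3 and 26.8 FPKM in Control against 7.20 and 8.25 FPKM in siSIRT1, a log2 fold change of -1.61 (adjusted p = 1.44e-05, limma). PHLDA1 was at 116.1 and 111.5 FPKM in Control against 43.0 and 46.0 FPKM in siSIRT1, a log2 fold change of -1.34 (adjusted p = 4.31e-06, limma). ETV4 fell by 0.98 on the log2 scale. EGR1, an immediate early factor, and CCND1, the cyclin of early G1, were the 2 higher ones, at log2 fold changes of 0.44 and 0.20. Both of these calls were lost without Control replicate 1 or Control replicate 2, and that of CCND1 also without siSIRT1 replicate 2, under each of the 4 other scalings (adjusted p from 0.149 to 0.223, limma), with no filter and without the eBayes trend. Protein levels and phosphorylation were not measured in these libraries.

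Of the adaptors and effectors that carry the signal, 22 were tested, with 5 higher and 3 lower and a median log2 fold change of 0.08. The share called, 36.4%, was near the 37.1% of all genes, and the median was near theirs of 0.07. SHC1, the adaptor that links receptors to GRB2, was at 261.3 and 253.4 FPKM in Control against 167.3 and 161 FPKM in siSIRT1, a log2 fold change of -0.65 (adjusted p = 0.000104, limma). HRAS, a RAS GTPase, rose from 33.6 and 33.8 FPKM to 65.9 and 62.9 FPKM (adjusted p = 2.52e-05, limma). RASA1, which switches RAS off, fell by 0.68 and STAT3 by 0.35 on the log2 scale. The count of 8 called was 5 without Control replicate 1 and 4 without Control replicate 2. GRB2, CRK and CRKL lost their calls without either of these libraries, PLCG1 without Control replicate 2, and CRKL also without siSIRT1 replicate 2. CRK and CRKL lost theirs with quantile normalization and median-of-ratios scaling as well, and CRKL with equal-sum scaling.

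Of the proteases that release ligands or process receptors and their inhibitors, 5 of 5 tested were called, 2 higher and 3 lower. Among all genes tested, 37.1% were called. ADAM17, the sheddase of AREG and HBEGF, was at 13.2 and 14.2 FPKM in Control against 7.88 and 8.30 FPKM in siSIRT1, a log2 fold change of -0.69 (adjusted p = 0.00069, limma). ADAM10 fell by 0.64 on the log2 scale. FURIN, which cleaves the MET precursor, rose by 0.47 on the log2 scale. SPINT1 and SPINT2, inhibitors of the proteases that activate the ligands of MET and MST1R, went in opposite directions, by 0.49 and -0.62. In endosomal sorting, 50% were called, against 37.1% of all genes. Of its 10 genes 4 were higher and 1 lower, with a median log2 fold change of 0.16. That count of 5 was 2 without Control replicate 1, 0 without Control replicate 2 and 2 without siSIRT1 replicate 1, and it was 2 with no filter and 3 under median-of-ratios scaling.

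**Figure D4:**
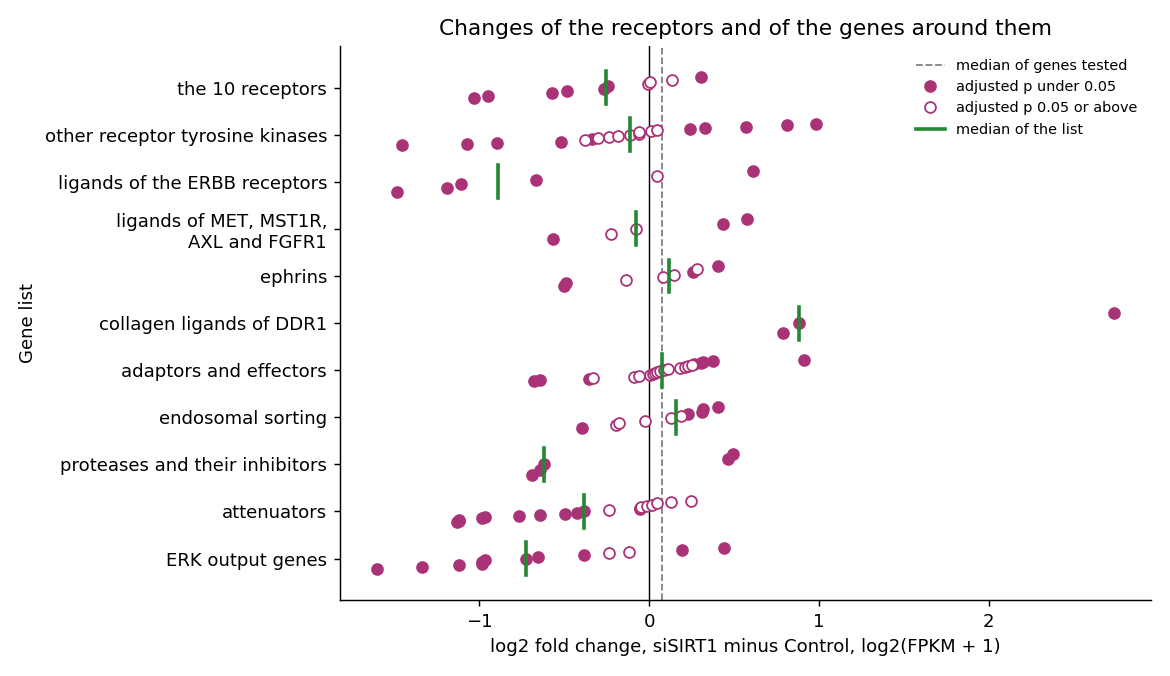
Log2 fold change (siSIRT1 minus Control, log2(FPKM + 1)) of each tested gene in the 10 receptors and in 10 lists around them, filled where the adjusted p was under 0.05. Green bars are list medians and the dashed line is the median of all genes tested (0.07). The medians of the ERBB ligands (-0.89) and of the ERK output genes (-0.72) lie farthest to the left and that of the collagens (0.88) to the right.

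Of the 6 epithelial and PANC-1 markers, VIM fell from 2198 and 2049 FPKM to 1503 and 1427 FPKM. KRT18 and KRT19 were higher by 0.26 and 0.25 on the log2 scale. The other 3, KRT8 among them, were not called. Called or not, 4 of the 6 were higher and 2 lower. Thus 50% were called, against 37.1% of all genes. The count of 3 called was 0 without Control replicate 1 and 5 without siSIRT1 replicate 2, and KRT18 and KRT19 were also lost without Control replicate 2. It was 1 under median-of-ratios or upper-quartile scaling, with no filter and without the eBayes trend, where KRT18 and KRT19 were not called. CD68 was lower, by 0.59 on the log2 scale. The part of these marker changes in the receptor changes was not tested.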

How the data were processed

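RNA-seq was measured in 4 libraries of PANC-1 cells, 2 Control and 2 siSIRT1, grouped by their labels. The authors deposited FPKM values per gene, 1 table per library. The submitters' processing notes name Bowtie2, HISAT and RSEM, without roles; the genome build and the use of strand are not given in the sources used here. FPKM depends on transcript length and on the library's total, so a few abundant genes can shift others. Since 26 symbols had turned into dates, Entrez identifiers were matched to RefSeq symbols (16846 of 16878 found). Coordinates, exons, transcript lengths and 3′ UTRs come from GENCODE release 44 on GRCh37, promoters from RefSeq (GRCh38.p14).

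Genes averaging 1 FPKM or more were tested on log2(FPKM + 1) with limma 3.58.1 (R 4.3.3; lmFit, eBayes with trend), two-sided, with Benjamini-Hochberg adjustment over 12191 genes at 0.05. No count test was run. Fold changes on this scale understate those of low genes. Depth was estimated from steps of 1 read in the FPKM of 104 to 126 genes (of 508 candidates) per library, with a length offset of 80 bases, and reads per gene are approximate. Counting error is the only error such numbers of reads cover. The text names the 10 receptors, SIRT1 and, from each further list, up to 5 genes in each direction with the largest change among called genes with groups apart. The 5 most abundant other receptors also fell under this rule. Markers and ligands near 0 (DCN, LUM, PRSS1, EGF, COL1A2) could be named as such. KRT8, NRG2, TGFA, HGF and MST1 were named outside it, after their values were seen. The receptors and lists were chosen with earlier results of these data known. The alternatives were a pseudocount of 0.1, no filter, 4 scalings, eBayes without the trend, the replicate number as a block and leaving out each library. A fit that leaves out 1 library has only 1 library in that group, so its residual spread comes only from the other group. Removing each library's trend on length or GC content (lowess span 0.3), with and without the block, was chosen after the data were seen.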

Additional observations from a re-analysis of the deposited data

How the results depend on the processing

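The replicate numbers in the titles give only 2 pairs, and deviations from the group means correlated at 0.123 between libraries sharing a number (12191 genes), so the numbers were not taken to pair the libraries. Taking the number as a block, the fit called 5393 genes instead of 4521, and 6 receptors instead of 3 passed the fold of 1.2 with p under 0.001. Removing the trend on length or on GC content gave 5 and 5 such receptors, and with the block 5 and 6. Without 1 library the number was 3 to 5. Over all genes, 2207 passed those thresholds, 1110 with no filter, 1376 without the eBayes trend, and 1319 to 1830 without 1 library.

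Called genes ranged from 2710 to 4582 without 1 library, the lowest without a Control library (2808 and 2710). Called receptors numbered 7, 4 without the eBayes trend (3 lower instead of 6) and 4 to 7 without 1 library. The log2 fold change without 1 library ran from 0.29 to 0.32 for ERBB2, from -0.32 to -0.21 for AXL and from -0.27 to -0.22 for FGFR1. Under the other scalings that of ERBB2 was smaller, 0.223 to 0.246. Without the eBayes trend, estimates stayed at -0.571 for EGFR, -0.265 for AXL and -0.243 for FGFR1 with adjusted p of 0.0558, 0.0557 and 0.0592. With no filter EGFR stayed at -0.571 with an adjusted p of 0.114. The cause was not tested. No receptor's called direction reversed. The median of all genes moved by less than 0.1 on the log2 scale under any scaling. Higher calls were 53.3% of all calls with quantile normalization, 50.1% with median-of-ratios, 52.1% with upper-quartile and 55.5% with equal-sum scaling, and 49.0% and 50.7% with the trend on length or GC content removed. EPHA2 held 22.8% of the summed FPKM of all receptors in Control and 32.7% of the 10 receptors alone.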
